A study of Mus musculus with 12 samples.

Results

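The genes examined here encode the enzymes that make cholesterol and the proteins that control them through the transcription factor SREBP2. They were chosen by name, from a list of 34 gene symbols ordered by step of the pathway. Of these symbols, 33 had a row among the 21705 genes of the liver expression table, and Hmgcs1 was not analysed here. RNA was sequenced from the livers of 12 female C57BL/6J mice aged 10 to 12 weeks, each library from 1 numbered animal. The control group, saline (n = 6), received saline by tail vein. The treated group, LNA29 (n = 6), received 2 locked nucleic acid oligonucleotides by the same route, against miR-29a and against miR-29b and miR-29c, at 20 mg per kg each. All livers were taken on day 7 after a fast of 18 h. Control mice received no oligonucleotide, so an effect of locked nucleic acid itself and one of miR-29 inhibition cannot be told apart here.

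Cholesterol is made from acetyl-CoA through mevalonate, isoprenoid diphosphates, squalene and lanosterol, and the liver is a main site of this synthesis. SREBP2, encoded by Srebf2, is held in the endoplasmic reticulum by the sterol sensor Scap and the anchor proteins Insig1 and Insig2. When sterols run low, Scap carries SREBP2 to the Golgi, where the proteases encoded by Mbtps1 and Mbtps2 release the part that enters the nucleus and raises transcription of the synthesis genes.

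The inhibitors were directed against 3 mature miRNAs, and the sequences are shown because direct targets commonly carry the reverse complement of their shared seed. In the RefSeq tables for GRCm38.p6, miR-29a lies at chr6:31062673-31062694 (minus strand) and miR-29c at chr1:195037600-195037621 (plus strand). miR-29b is made from 2 loci, chr6:31063025-31063047 (minus strand) and chr1:195037091-195037113 (plus strand). The capitals mark the seed, bases 2 to 8, which is the same in all 3.
mmu-miR-29a-3p: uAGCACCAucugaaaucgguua
mmu-miR-29b-3p: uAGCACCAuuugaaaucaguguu
mmu-miR-29c-3p: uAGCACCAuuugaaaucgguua

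The reverse complement of this seed, TGGTGCT, was searched for on the transcript strand, taking for each gene its longest 3′ UTR in GENCODE (GRCm38). It was present in 4 of the 33 members (12.1%) and in 2755 of 20994 protein-coding genes (13.1%). The 4 members were Fdft1, Cyp51, Insig1 and Tmem97, whose sites lie at chr14:63146566-63146594 (minus strand), chr5:4082218-4082246 (minus strand), chr5:28077188-28077216 (plus strand) and chr11:78542044-78542072 (minus strand). In the stretches below the capitals mark the match, and none is followed by an A.
Fdft1: cctcagcagccTGGTGCTggctgggactt
Cyp51: tgttgctggagTGGTGCTgcacacctgta
Insig1: agggaggttgaTGGTGCTtaacagagatg
Tmem97: ctgggttattcTGGTGCTggttctatgaa
All 4 had a lower mean in LNA29 livers. Their median log2 difference was -0.53, against -0.33 for the 29 members without a match.

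The values are read estimates scaled so that the upper quartile of each library is 1000 (998 in saline 49), and they are not corrected for gene length, so levels are compared between livers and not between genes. The libraries held 7696075 to 19062371 reads, 1 read was worth 9.80 to 24.4 units, and albumin alone took 35.7 to 46.9% of the reads. Differences are given as LNA29 minus saline on the scale of log2(value + 1) with the standard error from limma. Tests covered the 12486 genes with a mean value of at least 10, all 33 members included. Each member was tested with limma, adjusted by Benjamini-Hochberg over all tested genes, and by permuting the livers exactly over all 924 divisions into 6 and 6, two-sided, where the smallest possible p is 0.00216. Of the reported miR-29 targets Col1a1, Col3a1 and Sparc, Sparc rose by 1.51 ± 0.14 (limma adjusted p = 4.6e-05) and Col3a1 by 1.48 ± 0.28 (limma adjusted p = 0.0438), while Col1a1 differed by 0.70 ± 0.37 (limma adjusted p = 0.688).

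By an unadjusted test, a part of the cholesterol synthesis genes lay lower in LNA29 livers. Before lanosterol these included the genes for mevalonate kinase, isopentenyl diphosphate isomerase, farnesyl diphosphate synthase, squalene epoxidase and lanosterol synthase. After lanosterol they were 3 of 9 genes. Pmvk, Mvd and Fdft1, which act between the named enzymes, did not pass, and no member passed limma after adjustment. A missed threshold does not show that a gene was unchanged, and differences between steps were not tested. A lower mean was found for 29 of 33 members (87.9%), against 61.4% of all tested genes. The exact permutation test gave an unadjusted p under 0.05 for 10 lower members, namely Mvk, Idi1, Fdps, Sqle, Sec14l2, Lss, Cyp51, Sc4mol, Nsdhl and Mmab. That is 30.3% of the members, where 6.34% of all tested genes passed in that direction. A single member, Insig2, passed in the other direction (3.03%, against 2.15% of all tested genes). A log2 difference of -0.8 or lower was found for 10 members (30.3%, against 9.37% of all tested genes), which were these lower members without Sec14l2 and with Stard4.

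None of the 33 members passed limma after adjustment, where 0.16% of all tested genes did. The unadjusted limma p was under 0.05 for 13 members (39.4%, against 7.91% of all tested genes). On reads recovered from the scaled values, edgeR's quasi-likelihood test with adjustment called 0 of the 26 members it tested (0.278% of all genes), with 10 at an unadjusted p under 0.05 (38.5%, against 8.64% of all genes it tested), and DESeq2 with adjustment called 3 of 30, Sc4mol, Idi1 and Sqle (10%, against 0.818% of all genes). The verbs used below for single genes therefore rest on the unadjusted exact test.

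**Figure D1:**
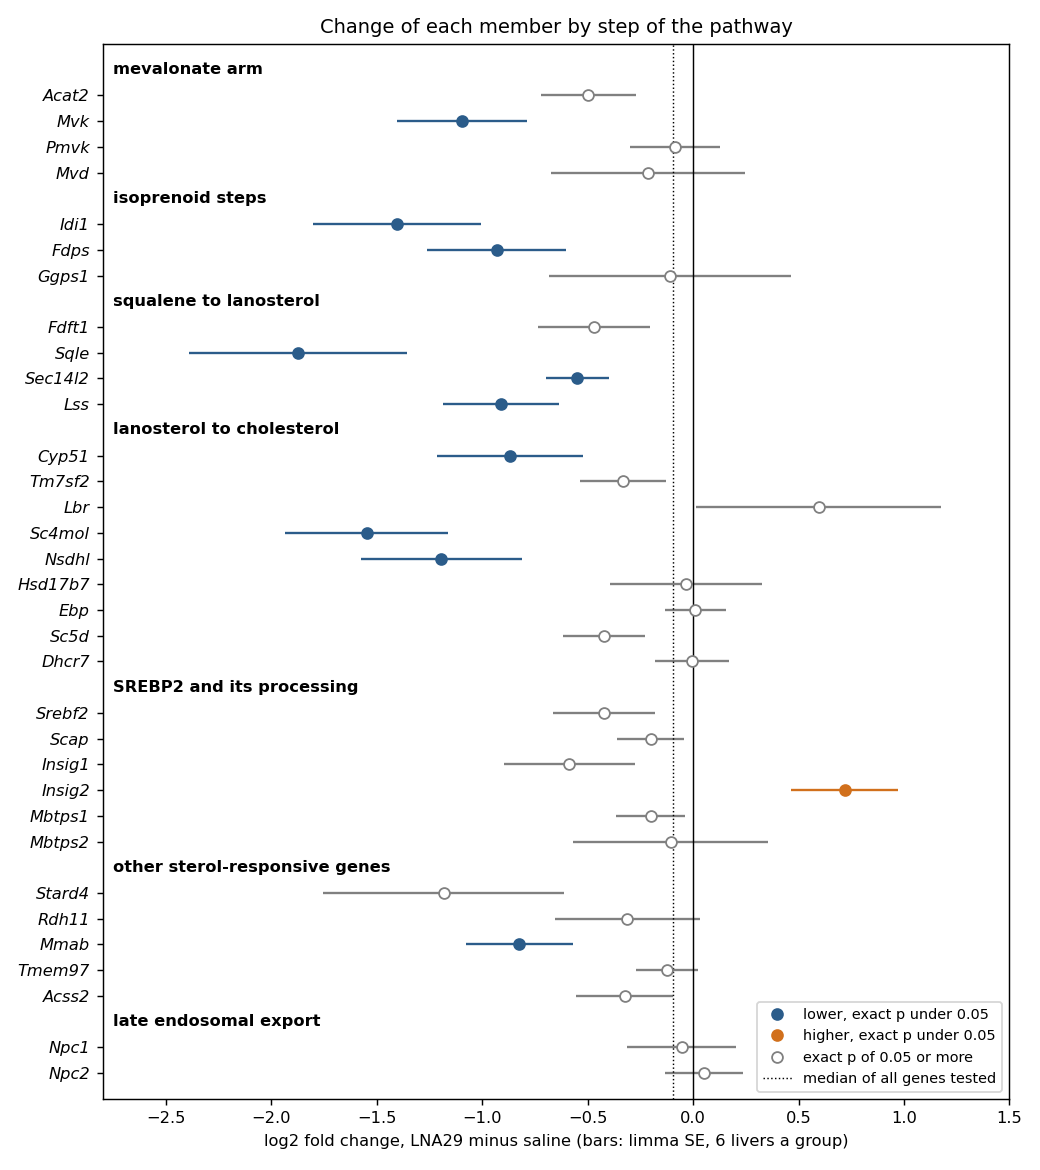
Each point is 1 of the 33 members, placed by step of the pathway, and its position gives the difference in mean log2(value + 1), LNA29 minus saline (n = 6 each), with the limma standard error as a bar. Filled points have an exact permutation p under 0.05, and the dotted line is the median of the 12486 tested genes, -0.09. The 10 lower filled points lie between -0.55 and -1.87, and the only filled point above 0 is Insig2 at 0.72.

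By step, the median log2 difference was -0.35 in the mevalonate arm (4 genes), -0.93 in the isoprenoid steps (3 genes), -0.73 from squalene to lanosterol (4 genes) and -0.33 from lanosterol to cholesterol (9 genes). It was -0.20 for SREBP2 and its processing proteins (6 genes), -0.33 for other sterol-responsive genes (5 genes) and 0.0 for the export genes of the late endosome (2 genes). The median was -0.33 over all members and -0.48 over the 20 genes of the synthesis steps, beside -0.09 over all tested genes. These 20 include Sec14l2, which encodes a lipid-binding protein and not an enzyme. Of these 20, 18 had a lower mean and 9 passed the exact test as lower. Medians of both larger and smaller size depended on single livers. With 1 liver left out, that of the isoprenoid steps ranged from -1.11 to -0.67. From squalene to lanosterol the range was -0.81 to -0.65, and from lanosterol to cholesterol -0.39 to -0.25. That of the mevalonate arm ranged from -0.55 (without saline 45) to -0.23 (without LNA29 44, with near values without LNA29 46 or saline 47), and that of SREBP2 and its processing proteins from -0.32 (without LNA29 44, with -0.30 without saline 53) to -0.15 (without saline 43). For other sterol-responsive genes it ranged from -0.46 (without LNA29 44) to -0.22 (without LNA29 52).

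These are whole livers, so fewer cells of a type and less RNA per cell cannot be told apart. None of the 8 hepatocyte, 7 stellate cell, 6 endothelial cell or 5 bile duct markers passed the exact test in either direction, and 1 of 6 Kupffer cell markers did, Marco (log2 difference 1.08 ± 0.37, exact permutation p = 0.0368, limma adjusted p = 0.391). The summed hepatocyte markers ranged from 32003300 to 109076000 in saline and from 78913500 to 93612400 in LNA29 livers. Albumin made up most of these sums, ranging in saline from 29304000 (saline 49) to 98695000 (saline 47), so they say little about the other hepatocyte markers. The sums ranged from 4474 to 5170.0 and from 4073 to 5877 for stellate cells, and from 7188 to 10569 and from 6018 to 14877 for Kupffer cells. For endothelial cells they ranged from 4492 to 5120.0 and from 3849 to 5109.6, and for bile duct cells from 603 to 891 and from 416 to 868, so all of these ranges overlapped. The bile duct markers Krt7 and Epcam were without reads in at least 1 LNA29 liver, and no marker was without reads throughout a group.

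In the mevalonate arm, Mvk, the kinase that phosphorylates mevalonate, ranged from 245 to 807 with a median of 515 in the saline livers and from 138 to 317 with a median of 257 in the LNA29 livers. It fell 2.14-fold (log2 difference -1.09 ± 0.31, exact permutation p = 0.0130, limma adjusted p = 0.232). The 5 highest values were all in saline livers, and saline 53 lay within the LNA29 range. Its counts were small, 25 to 58 reads in saline and 8 to 23 reads in LNA29 livers. The other 3 genes of the arm did not pass. Acat2, the cytosolic thiolase that joins acetyl-CoA units, ranged from 619 to 1455 with a median of 1099.7 in the saline livers and from 531 to 898 with a median of 772 in the LNA29 livers (log2 difference -0.50 ± 0.23, exact permutation p = 0.0714, limma adjusted p = 0.608), and it passed without saline 45 (-0.64, exact permutation p = 0.0238) or saline 53. Its values were not whole reads (within 0.05) in 11 of 12 livers, which occurs where reads are split between loci. The same held for Npc1 in 11, Fdft1 in 10, Dhcr7 in 9 and Lbr in 8 livers, so the values of these 5 genes are uncertain. Pmvk, phosphomevalonate kinase, differed by -0.09 ± 0.21 (exact permutation p = 0.684). Mvd, the decarboxylase that yields isopentenyl diphosphate, differed by -0.21 ± 0.46 (exact permutation p = 0.667) on 3 to 14 reads per LNA29 liver.

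Idi1, which interconverts the isoprenoid building blocks, ranged from 333 to 3625 with a median of 952 in the saline livers and from 302 to 634 with a median of 341 in the LNA29 livers. It fell 2.65-fold (log2 difference -1.40 ± 0.40, exact permutation p = 0.0152, limma adjusted p = 0.237). Saline 43 was by far the highest, and the other saline livers except saline 53 also lay above every LNA29 liver. Without saline 43 the difference was -1.04 (exact permutation p = 0.0281), and with saline 43 and saline 49 both left out it was -0.84 (exact permutation p = 0.0571). Fdps, the synthase of farnesyl diphosphate, ranged from 210.0 to 947 with a median of 348 in the saline livers and from 161 to 245 with a median of 204 in the LNA29 livers. It fell 1.91-fold (log2 difference -0.93 ± 0.33, exact permutation p = 0.0173, limma adjusted p = 0.413). Here saline 47 and saline 43 were highest, 4 saline livers lay above all LNA29 livers, and saline 45 and saline 49 lay among the LNA29 values. When values beyond 1.5 SD of their group were discarded, Fdps no longer passed (log2 difference -0.61, exact permutation p = 0.0635). Ggps1, which makes the diphosphate used for protein prenylation and not for sterols, differed by -0.11 ± 0.57 (exact permutation p = 0.857) on at most 12 reads per liver, and a difference of the size seen in Fdps lies within 2 standard errors of that value, so it was not detectable at this depth.

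From squalene to lanosterol, Sqle, the epoxidase that adds oxygen to squalene and a slow step of the pathway, ranged from 63.5 to 656 with a median of 156 in the saline livers and from 17.9 to 73.2 with a median of 55.7 in the LNA29 livers. It fell 3.66-fold (log2 difference -1.87 ± 0.52, exact permutation p = 0.00433, limma adjusted p = 0.222), the largest difference among the members. All LNA29 livers but LNA29 46 lay below every saline liver, and saline 43 was again the highest. For LNA29 44 the margin was less than 1 read, with 62.5 on 5 reads against 63.5 on 4 reads in saline 45. The estimate rests on 4 to 42 reads in saline and only 1 to 5 reads in LNA29 livers. Lss, lanosterol synthase, ranged from 242 to 641 with a median of 307 in the saline livers and from 132 to 225 with a median of 192 in the LNA29 livers. It fell 1.88-fold (log2 difference -0.91 ± 0.28, exact permutation p = 0.00216, limma adjusted p = 0.265), and the groups did not overlap.

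Sec14l2, a lipid-binding protein that stimulates squalene epoxidase and lanosterol synthesis in cell extracts, was the deeply sequenced member of this step. Its values ranged from 25238 to 43351 with a median of 30032 in the saline livers and from 19585 to 24717 with a median of 21012 in the LNA29 livers on 1590 to 3548 and 803 to 1917 reads. It fell 1.46-fold (log2 difference -0.55 ± 0.15, exact permutation p = 0.00216, limma adjusted p = 0.212), and the highest LNA29 liver lay just under the lowest saline liver. Sec14l2 and Lss were the 2 members (6.06%) whose LNA29 livers all lay below all saline livers, against 0.713% of all tested genes. None of the members lay wholly above, against 0.272%. Fdft1, squalene synthase, which commits the pathway to sterols, ranged from 1245 to 3734 with a median of 1873 in the saline livers and from 1000.5 to 2405 with a median of 1537 in the LNA29 livers (log2 difference -0.47 ± 0.27, exact permutation p = 0.177, limma adjusted p = 0.726). It had high values in saline 43 and saline 47, and the groups overlapped over most of their range.

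**Figure D2:**
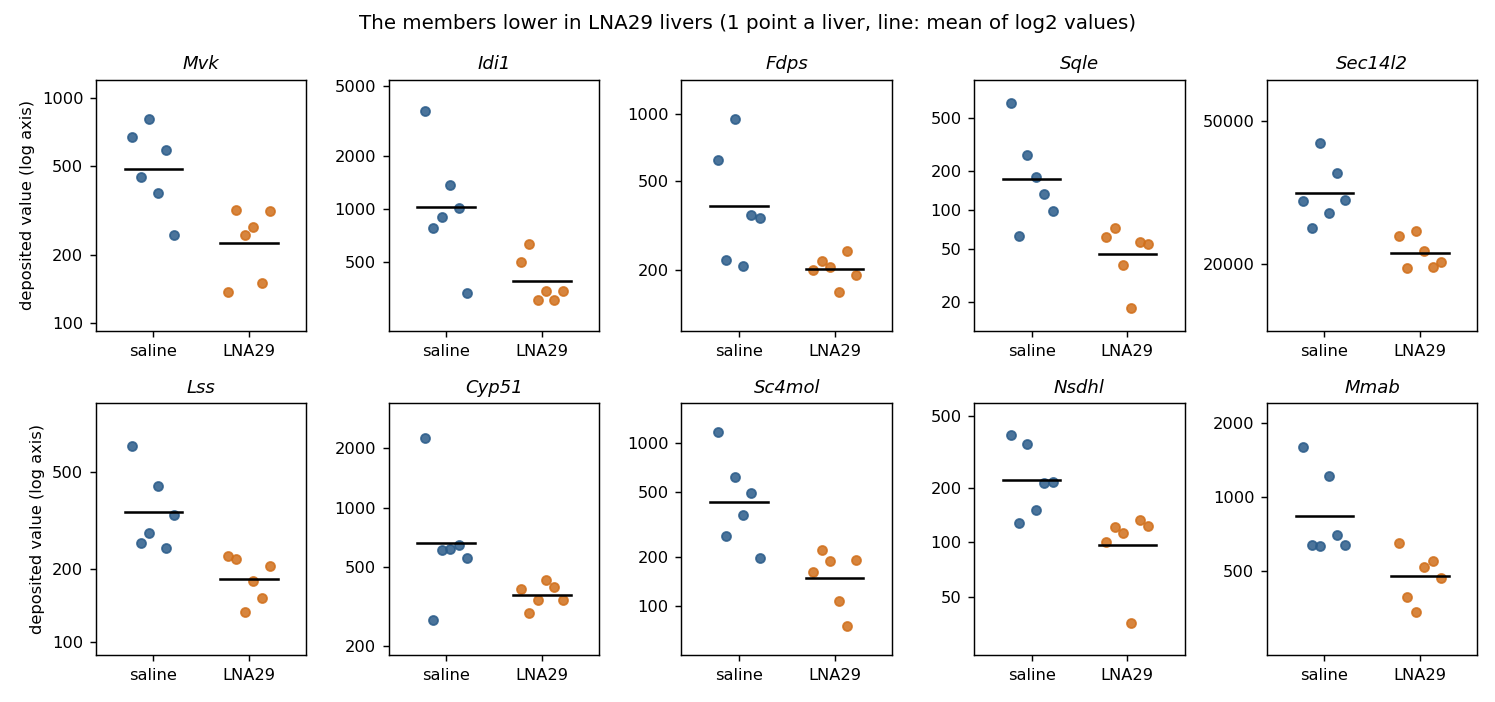
Each panel shows 1 of the 10 members that passed the exact permutation test as lower, with the value of each liver in units scaled to an upper quartile of 1000 on a log axis, by group (n = 6 each). The line in each group marks the mean of the log2 values. Only Sec14l2 and Lss show no overlap between groups.

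After lanosterol, 3 of 9 genes fell, and they act on the methyl groups of lanosterol. In the order of the list, Tm7sf2 and Lbr, which did not pass, lie between Cyp51 and Sc4mol. Sc4mol (now Msmo1), the monooxygenase that oxidises a methyl group of the sterol ring, ranged from 196 to 1156 with a median of 427 in the saline livers and from 75.5 to 219.5 with a median of 176 in the LNA29 livers. It fell 2.92-fold (log2 difference -1.55 ± 0.39, exact permutation p = 0.00433, limma adjusted p = 0.160), and only LNA29 46 lay above the lowest saline liver, saline 53. Nsdhl, the dehydrogenase that acts next on the oxidised group, ranged from 127 to 391 with a median of 214 in the saline livers and from 35.7 to 132 with a median of 118 in the LNA29 livers. It fell 2.29-fold (log2 difference -1.19 ± 0.38, exact permutation p = 0.00433, limma adjusted p = 0.318), with LNA29 50 far below the rest and only LNA29 52 above the lowest saline liver. Hsd17b7, the ketone reductase that acts after Nsdhl in the same series, differed by -0.03 ± 0.36 (exact permutation p = 0.931) and did not pass. Cyp51, the cytochrome P450 that starts the series, ranged from 269.8 to 2250.0 with a median of 617 in the saline livers and from 293 to 429 with a median of 365 in the LNA29 livers. It fell 1.83-fold (log2 difference -0.87 ± 0.35, exact permutation p = 0.0281, limma adjusted p = 0.502), yet its lowest value was in saline 45 and its highest, in saline 43, stood far from the rest. Without saline 43 the difference was -0.52 (exact permutation p = 0.0584), and Cyp51 also missed the threshold when LNA29 44, 46, 48 or 54 was left out, with log2 differences from -0.89 to -0.81 (exact permutation p = 0.0519 to 0.0693).

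The other 5 genes after lanosterol did not pass either. Tm7sf2, a sterol reductase, ranged from 2170.0 to 5929 with a median of 5145 in the saline livers and from 3146 to 4232 with a median of 3509 in the LNA29 livers (log2 difference -0.33 ± 0.20, exact permutation p = 0.184, limma adjusted p = 0.753), and the 5 highest livers were all saline while saline 49 was the lowest of all 12. Without saline 49 its difference was -0.54 (exact permutation p = 0.00216). Lbr, a nuclear membrane protein with the same reductase activity, differed by 0.59 ± 0.58 (exact permutation p = 0.331) on at most 12 reads per liver. Sc5d, the desaturase of the sterol ring, ranged from 2588 to 6641 with a median of 3552 in the saline livers and from 2356 to 3675 with a median of 2721 in the LNA29 livers (log2 difference -0.42 ± 0.20, exact permutation p = 0.0649, limma adjusted p = 0.617). Its call depended on the setting, since it passed without LNA29 44 (-0.50), saline 47 or saline 53 (-0.53), with a common median and with values beyond 1.5 SD discarded, whereas without saline 43 it was -0.26 (exact permutation p = 0.123). Ebp, a sterol isomerase, differed by 0.01 ± 0.14 and Dhcr7, the reductase that yields cholesterol, by -0.01 ± 0.17 (exact permutation p = 0.935 and 0.983).

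Of the genes for SREBP2 and the proteins that process it, 5 of 6 had a lower mean and none of these 5 passed the exact test. Srebf2 itself ranged from 1294 to 3391 with a median of 1856 in the saline livers and from 792 to 1925 with a median of 1488 in the LNA29 livers (log2 difference -0.42 ± 0.24, exact permutation p = 0.175, limma adjusted p = 0.726). Saline 43, 49 and 51 lay above all LNA29 livers, LNA29 48 lay below all saline livers, and the rest were mixed. Insig1, a target of SREBP2 and an anchor of Scap, ranged from 698 to 3281 with a median of 1593 in the saline livers and from 707 to 1981 with a median of 1010.4 in the LNA29 livers (log2 difference -0.59 ± 0.31, exact permutation p = 0.154, limma adjusted p = 0.696). It was highest in saline 43 and 47 and lowest in saline 45, without which its difference was -0.83 (exact permutation p = 0.0325), and without saline 43 it was -0.38 (exact permutation p = 0.305). Scap differed by -0.20 ± 0.16, Mbtps1 by -0.20 ± 0.16 and Mbtps2 by -0.11 ± 0.46 (exact permutation p = 0.229, 0.130 and 0.842), and Scap and Mbtps1 passed without LNA29 44 (-0.31 and -0.28, exact permutation p = 0.0455 and 0.0411).

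Insig2 was the member with a higher mean that passed. In mouse liver Insig2 has a transcript that is raised by fasting and lowered by insulin, and the table gives 1 value per gene, so transcripts were not separated. Its values ranged from 7474 to 19140.0 with a median of 13380.1 in the saline livers and from 12981 to 34342 with a median of 22002 in the LNA29 livers, on 426 to 1914 and 688 to 2622 reads. It rose 1.64-fold (log2 difference 0.72 ± 0.25, exact permutation p = 0.0433, limma adjusted p = 0.416). The 4 highest livers were LNA29, while LNA29 48 and LNA29 52 lay among the saline livers and saline 47 was the lowest. The call depended on single livers, since p exceeded 0.05 when saline 43, 47, 51 or 53 or LNA29 44, 46, 50 or 54 was left out, with log2 differences from 0.55 and a highest p of 0.0866.

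**Figure D3:**
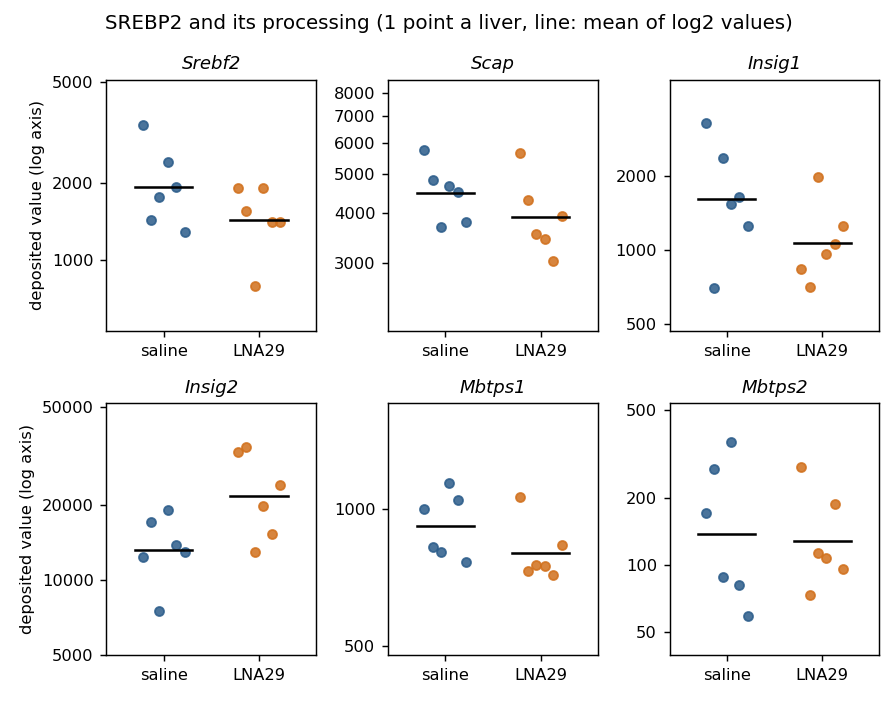
Values of Srebf2, Scap, Insig1, Insig2, Mbtps1 and Mbtps2 in each liver, in units scaled to an upper quartile of 1000 on a log axis, by group (n = 6 each), with a line at the mean of the log2 values. The groups overlap in every panel, and Insig2 is the only one whose LNA29 line lies above its saline line.

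Among other genes known to respond to sterols, Mmab fell and the other 4 did not pass. Mmab, an adenosyltransferase of vitamin B12 metabolism, ranged from 632 to 1609 with a median of 667 in the saline livers and from 339.6 to 650.0 with a median of 492 in the LNA29 livers. It fell 1.77-fold (log2 difference -0.82 ± 0.25, exact permutation p = 0.00866, limma adjusted p = 0.290), and only LNA29 44 lay above the lowest saline liver. Stard4, a carrier of cholesterol in the cytosol, ranged from 47.6 to 344 with a median of 59.7 in the saline livers and from 17.9 to 73.2 with a median of 48.8 in the LNA29 livers (log2 difference -1.18 ± 0.57, exact permutation p = 0.0974, limma adjusted p = 0.634), and its difference rests on saline 43 and saline 49, the other saline livers lying within the LNA29 range. Tmem97, a membrane protein that binds the cholesterol exporter Npc1, differed by -0.12 ± 0.15 (exact permutation p = 0.303), and by -0.22 (exact permutation p = 0.0130) without saline 49. Acss2, which makes acetyl-CoA from acetate, differed by -0.33 ± 0.23 and Rdh11, a retinal reductase, by -0.31 ± 0.34 (exact permutation p = 0.271 and 0.422). Npc1 and Npc2, which move cholesterol out of late endosomes, differed by -0.05 ± 0.26 and 0.05 ± 0.19 (exact permutation p = 0.872 and 0.833).

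Mmab and Mvk start head to head on chromosome 5, with starts 242 bases apart in RefSeq (GRCm38.p6), and their promoter windows share 259 bases. The window of Mvk (chr5:114444019-114444318, plus strand, 250 bases before to 50 after the start) is shown because both genes fell. The capitals mark CCAAT, the box bound by NF-Y, a partner of SREBP2, or its reverse complement ATTGG.
Mvk: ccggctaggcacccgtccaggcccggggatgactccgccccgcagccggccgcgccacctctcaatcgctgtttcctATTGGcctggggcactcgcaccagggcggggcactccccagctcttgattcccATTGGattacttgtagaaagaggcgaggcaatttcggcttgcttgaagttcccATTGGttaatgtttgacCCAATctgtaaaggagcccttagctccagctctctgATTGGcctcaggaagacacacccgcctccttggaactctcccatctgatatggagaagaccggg

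CCAAT was searched for on both strands of the 28 members' promoters found in the RefSeq table, together with the GC box GGGCGG, the E-box CACGTG, and 2 forms of the sterol response element, TCACCCCA and TCACNCCAC. Fdps, Fdft1, Sqle, Stard4 and Npc1 were not matched. CCAAT was in 24 of 28 (85.7%), against 37.4% of all 32851 promoters and 41.1% of the 27025 genes they belong to. GGGCGG was also in 24 of 28 (85.7%, against 35.7% of promoters and 38.2% of genes). Each of these motifs was in all 8 lower members with a promoter and in 16 of the other 20. CACGTG was in 6 of 28 and in none of the 8 lower members (7.15% of promoters and 8.09% of genes). TCACCCCA was in 1 member, Srebf2 (1.56% of promoters and 1.77% of genes), and TCACNCCAC in none (1.24% of promoters and 1.44% of genes). A stretch that fits both forms of the sterol element counts under both. The shares of promoters and genes cover the whole RefSeq table, whether or not a gene was tested in liver. The shares among the tested liver genes were not taken, so these figures do not compare the members with other liver genes. These are matches of letters in a window, and no factor was measured.

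The windows below hold the CCAAT boxes of 4 lower members and both motifs of Srebf2, which SREBP2 is known to activate itself, with the box, on either strand, and the sterol element in capitals. They lie at chr11:4118840-4118874 (minus strand) for Sec14l2, chr10:76531528-76531562 (plus strand) for Lss, chr13:8885546-8885611 (plus strand) for Idi1, chr8:64733614-64733753 (minus strand) for Sc4mol and chr15:82147019-82147318 (plus strand) for Srebf2.
Sec14l2: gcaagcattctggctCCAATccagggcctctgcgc
Lss: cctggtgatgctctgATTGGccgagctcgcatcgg
Idi1: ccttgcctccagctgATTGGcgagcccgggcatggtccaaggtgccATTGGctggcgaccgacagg
Sc4mol: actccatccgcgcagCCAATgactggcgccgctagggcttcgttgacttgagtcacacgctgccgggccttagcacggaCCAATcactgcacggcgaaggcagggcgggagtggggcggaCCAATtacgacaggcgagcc
Srebf2: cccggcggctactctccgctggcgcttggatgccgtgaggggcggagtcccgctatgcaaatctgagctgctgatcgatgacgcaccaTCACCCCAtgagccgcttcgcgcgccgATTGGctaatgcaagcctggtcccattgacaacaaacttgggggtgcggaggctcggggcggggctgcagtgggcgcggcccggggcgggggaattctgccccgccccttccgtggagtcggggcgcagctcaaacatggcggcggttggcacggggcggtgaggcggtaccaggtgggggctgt

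To set the livers side by side, the log2 value minus the mean of the saline livers was taken for each gene. Its median in each liver was then taken over the 20 genes of the synthesis steps, Sec14l2 included. In LNA29 livers this median lay between -0.76 and -0.51. In saline livers it lay between -0.42 (saline 45) and 0.82 (saline 43), so the 2 ranges did not overlap, while the same median over all tested genes lay between -0.12 and 0.17. The 6 LNA29 livers were close to each other, and the saline livers were spread out. The SD of the log2 values was larger in saline than in LNA29 livers for 24 of 33 members (72.7%), against 47.5% of all tested genes.

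**Figure D4:**
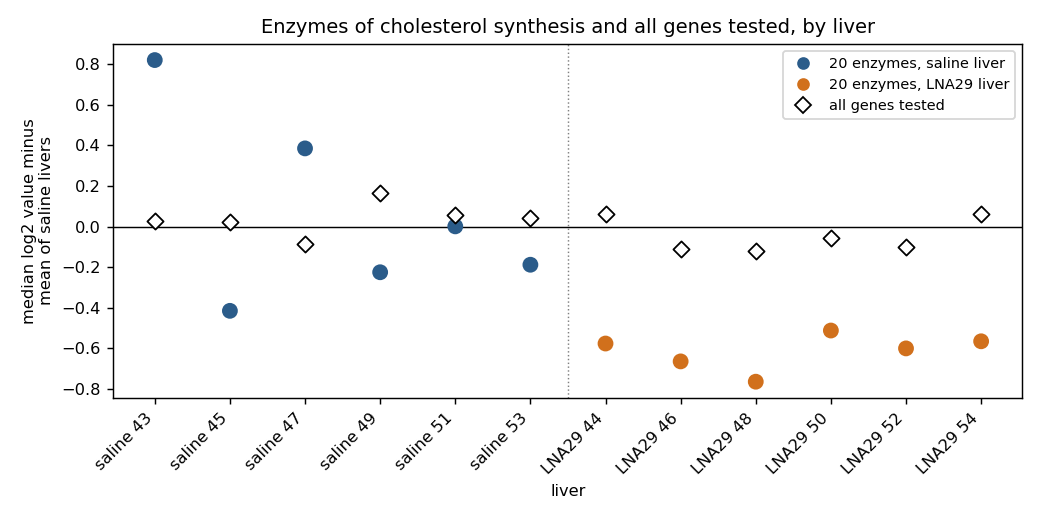
For each liver, the median over the 20 genes of the synthesis steps and the median over the 12486 tested genes of the log2 value minus the mean of the saline livers. The 20 genes are labelled enzymes in the figure and include Sec14l2. The 6 LNA29 livers sit between -0.76 and -0.51 for these 20 genes, saline 43 stands at 0.82, and the medians over all tested genes stay within -0.12 and 0.17.

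Saline 43 held the highest value of all 12 livers for 18 of 33 members (54.5%), against 8.35% of all tested genes. These included Idi1, Sqle, Lss, Cyp51, Sc4mol, Nsdhl, Mmab, Stard4, Srebf2 and Insig1. With saline 43 left out, 9 members still passed as lower, Cyp51 being lost, and with saline 43 and saline 49 both left out 10 passed, Idi1 and Cyp51 being lost and Tm7sf2 and Tmem97 gained, a setting chosen after seeing the data.

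**Figure D5:**
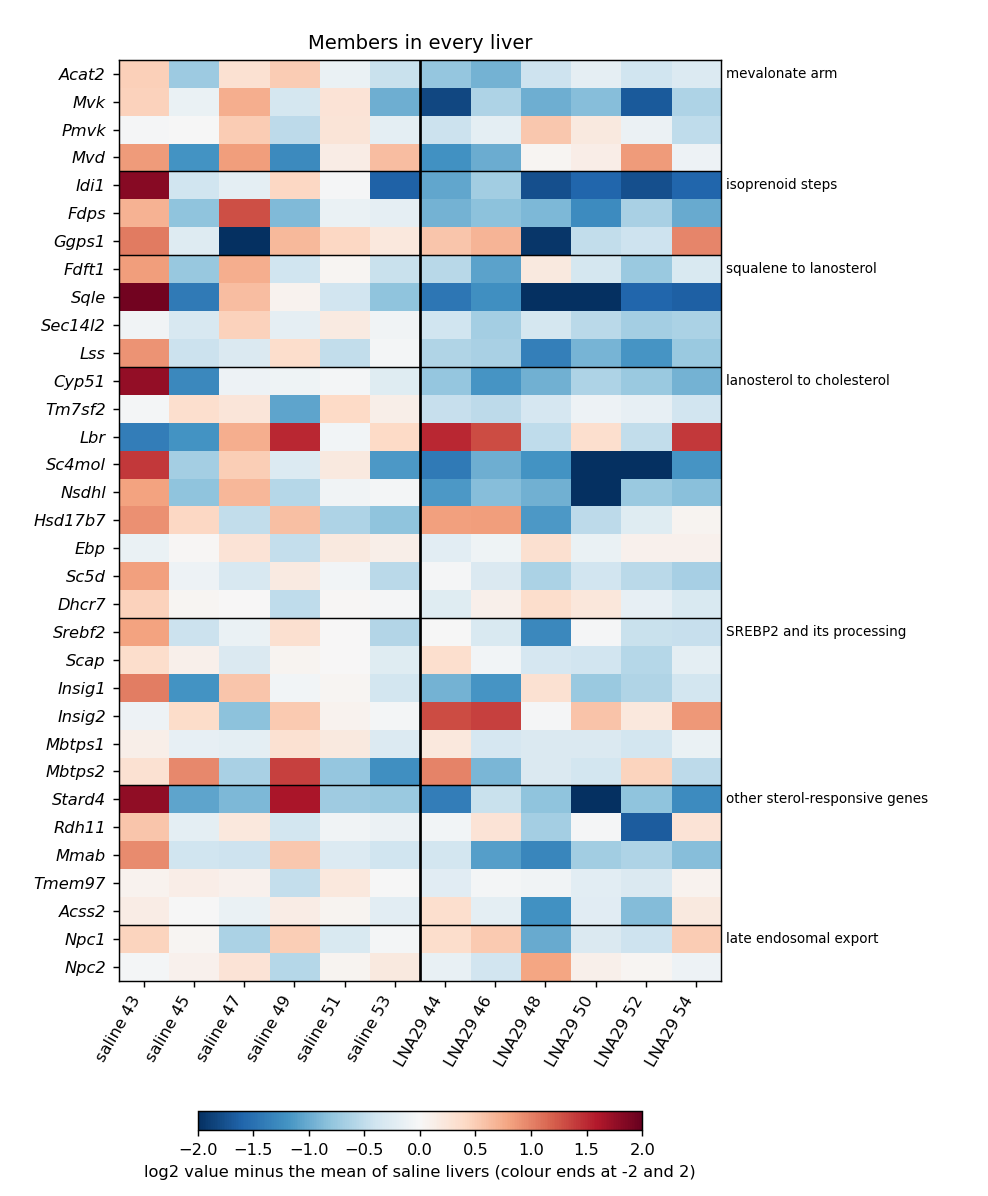
Colour gives the log2 value minus the mean of the saline livers for 33 members (rows, in order of the pathway) in 12 livers (columns, saline then LNA29). The column of saline 43 is the highest for 18 of the 33 rows.

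Saline 49 stood apart in another way. Long transcripts read higher and short ones lower in it, the longest minus the shortest of 4 equal classes of transcript length being 0.84 on the log2 scale, against -0.43 to 0.38 in the other 11 livers. It was the lowest liver for 7 members, among them Tm7sf2, Tmem97 and Npc2 (21.2%, against 11.1% of all tested genes), and LNA29 48 was the lowest for 7 others (17.2% of all tested genes). When livers were centred within these 4 classes, a setting also chosen after seeing the data, 9 members passed as lower (Cyp51 was lost at -0.73, exact permutation p = 0.0736) and 0 as higher (Insig2, 0.75, exact permutation p = 0.0649), with a median of -0.30 over the members. This centring also changed the background, where 4.2% of genes then passed as lower and 4.29% as higher. With TMM scaling of the recovered reads these shares were 4.54% and 3.32%, and 10 members passed as lower and 1 as higher. Whether RNA quality has a part in these differences was not tested.

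Other genes of the pathway were counted from 4 further lists, to be read against the 6.34% and 2.15% of all tested genes that passed as lower and as higher. Among the electron donors of the sterol enzymes, 2 of 4 fell. Cyb5b, a cytochrome b5 of the outer mitochondrial membrane, ranged from 3804 to 6391 with a median of 4588 in the saline livers and from 2732 to 3178 with a median of 2929 in the LNA29 livers, with no overlap (log2 difference -0.69 ± 0.14, exact permutation p = 0.00216, limma adjusted p = 0.0681), and Cyb5r3, the reductase of cytochrome b5, differed by -0.48 ± 0.18 (exact permutation p = 0.0260, limma adjusted p = 0.459). Of 12 genes of sterol transport and esterification, 2 fell and 0 rose. These were Stard3, a late endosomal sterol-binding protein (log2 difference -0.61 ± 0.23, exact permutation p = 0.00649, limma adjusted p = 0.451), and Osbpl2, an oxysterol-binding protein homologue (log2 difference -0.40 ± 0.18, exact permutation p = 0.0108, limma adjusted p = 0.599). Of 16 genes of the isoprenoid branches to dolichol, ubiquinone and prenylated proteins, 0 fell and 1 rose, Rabggtb, a subunit of Rab geranylgeranyl transferase (log2 difference 0.48 ± 0.19, exact permutation p = 0.0130, limma adjusted p = 0.487). Coq3, a methyltransferase of ubiquinone synthesis, had the next smallest limma p, with a difference of -0.45 ± 0.29 (exact permutation p = 0.162). None of the 9 genes tested of sterol-regulated degradation in the endoplasmic reticulum passed in either direction. Ufd1l, an adaptor of the VCP segregase, differed by 0.21 ± 0.16 (exact permutation p = 0.160).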

How the data were processed

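Polyadenylated liver RNA from 6 saline and 6 LNA29 mice was sequenced in single reads. According to the study's methods and the submitters' processing notes, the authors mapped reads with MapSplice2, assigned them to genes with RSEM and used build mm9 (versions and annotation are not given in the sources used here). The deposited values are a signal made by the authors from RSEM read estimates, scaled so that the upper quartile of genes with reads is 1000 in each liver (998 in saline 49), with 1 listed for genes without reads. Both facts were read from the values. In each liver 91.8 to 93.7% of values were whole multiples of 1 read (tolerance 0.02), so reads were recovered for count tests. The depth of 7696075 to 19062371 reads per liver limits the precision of members with few reads, and read numbers describe counting error only. The authors' own means, fold changes and p-values were not used, nor were 3 unnamed columns.

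Values were analysed as log2(value + 1) over genes whose mean value was 10 or more. The tests were limma 3.58.1 (trend, Benjamini-Hochberg adjustment over all tested genes, threshold 0.05) and exact permutation tests enumerated with numpy 2.4.6. Differences of low genes depend on the log2(value + 1) scale, since a gene without reads is listed as 1 while 1 read is worth 9.80 to 24.4 units. The alternatives were count tests of the recovered reads (edgeR 4.0.16 and DESeq2 1.42.0), other pseudocounts (0.1 and 10), other filters (1 and 100), other scalings, each liver left out in turn, and values more than 1.5 SD from their group mean discarded. Models were also run on simulated reads, with the same dispersion for every gene and no outlying liver. That check does not cover members with few reads or a wide spread between livers. The text names every member, and from the other lists the 2 genes with the smallest limma p in each, except 1 result that is not reported here. The members and lists were chosen with earlier results of these data known. Promoter and miRNA sequences come from RefSeq (GRCm38.p6) and 3′ UTRs and transcript lengths from GENCODE (GRCm38), neither being the authors' build. Promoters were matched by Entrez gene identifier (28 members). UTRs were matched by symbol (all 33), using the current symbol of that identifier where there was one. 1 gene of the degradation list, March6, was not analysed here.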

Additional observations from a re-analysis of the deposited data

Results flagged for a closer look

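The rule was applied to the log2 values of 66 sets of 6 livers, 1 for each member and group. In 5 sets a liver lay further from its neighbour than Dixon's 95% critical value allows. Which livers are flagged depends on this scale, and the values printed here are not logged. Chance flags about 1 in 20 such sets. Saline 49 was the low liver in 3 of them, with 2170.0 for Tm7sf2 (the other saline livers at 4422 or above), 1090.0 for Tmem97 and 2140.0 for Npc2. LNA29 50 was low for Nsdhl at 35.7, which is 2 reads. LNA29 48 was low for Srebf2 at 792, the other LNA29 livers lying between 1411 and 1925.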

How the results depend on the processing

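Of 749 values of single members under an alternative, 709 stayed on the same side of the threshold, 21 lost a call, 19 gained one, and no called value changed direction. The number of members past adjusted limma was 0, and it was 1 (Tm7sf2) when values beyond 1.5 SD were discarded and 3 with DESeq2. The number that passed the exact test as lower was 10 and ranged from 9 to 12 when 1 liver was left out and under the other settings. The number that passed as higher was 1, from 0 to 1 when 1 liver was left out, and 0 when values beyond 1.5 SD were discarded, when livers were centred by transcript length, and when saline 43 and saline 49 were both left out. The last 2 settings were chosen after seeing the data. A lower mean was found for 29 members, for 26 to 29 when 1 liver was left out, for 20 of the 26 members edgeR tested, and for 25 of 33 with DESeq2 and with centring by transcript length. The median over members was -0.33 and ranged from -0.44 to -0.26 when 1 liver was left out. No paired analysis was possible because the groups share no replicate numbers. Members with few reads (Sqle, Nsdhl, Stard4, Mvd, Ggps1 and Lbr) are limited by depth, and the cause of the other lost and gained calls was not tested.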
